A study of Mus musculus with 6 samples.

Results

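The transcripts of wild-type mouse megakaryocytes, the large blood cells that shed platelets, were described on 3 arrays, those labelled WT among the 6 arrays of the series. The cells were cultured from fetal livers of C57BL/6 embryos at E13.5 (embryonic day), with no other allele or treatment given in the labels. Each array was a single-colour Agilent array of Cy3-labelled RNA, and the series' design describes the 3 samples of a genotype as independent experiments. The labels do not say how many livers a culture pooled, how long the cells grew or which cytokines they received. The extraction protocol in the labels names whole embryos as the RNA source, against the cultured megakaryocytes of the source field, and markers of embryonic tissues are therefore given below. A gene was counted as detected where one of its probes stood well above background on all 3 arrays, by the scanner software's own call. By that rule 12126 of 18217 named genes (66.6%) were detected, 1705 were above background on 1 or 2 arrays, and 4386 (24.1%) on none. The level of a gene is its log2 processed signal minus the 75th percentile of the array, so that 0 is the signal that 3 in 4 probes do not reach. Levels are given in the order of arrays 1, 2 and 3, and ± is the SD over the 3 arrays. A rank of 1 is the brightest of the detected genes and a percentile counts among all named genes. Probes differ in how well they bind, so a rank orders signals and is no ratio of transcripts: the only probe of the cytoplasmic actin gene Actb ranked 7964.

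Megakaryocytes arise from stem and progenitor cells under the cytokine thrombopoietin. They replicate their DNA without dividing, fill alpha, dense and lysosomal granules, and extend proplatelets, beaded processes that release platelets. Transcription factors of the GATA, ETS and RUNX families and NF-E2, a dimer of p45 (the product of Nfe2) with a small Maf protein, drive that programme. In the fetal liver these cells lie among erythroblasts, macrophages, granulocyte precursors, hepatoblasts, endothelium and stroma, so genes of each of those cells were read beside the platelet genes.

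The arrays were of like sensitivity but array 1 stood apart. Between 57.8% and 61.1% of the 41174 probes passed the background call, and no spot was saturated. The 75th percentile of the signal was 339 on array 1, 583 on array 2 and 575 on array 3. Across the detected genes the levels of arrays 2 and 3 correlated at 0.989 (Pearson), those of arrays 1 and 2 at 0.949 and those of arrays 1 and 3 at 0.955, over genes, which are not independent. A difference of at least 2-fold separated arrays 2 and 3 for 424 genes, and array 1 from array 2 for 2529. Arrays 1 and 2 shared a slide and array 3 lay on another. The software's quality report put the spike-in slope of array 2 out of range and all metrics of arrays 1 and 3 in range. The median SD over the detected genes was 0.29, and 0.14 between arrays 2 and 3 alone.

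All 5 megakaryocyte markers were detected and lay in the highest 10% of named genes. Pf4, the platelet chemokine stored in alpha granules, had levels of 8.96, 8.70 and 8.71 and ranked 11. Its 3 values lay within 0.26 of each other, the tightest of the markers. Cd9, a tetraspanin of the platelet surface, had levels of 5.97, 6.84 and 6.99 and ranked 222. Clec1b, the receptor for podoplanin (CLEC-2), had levels of 4.59, 6.82 and 7.03 and ranked 329. Itga2b, the alpha subunit of the fibrinogen receptor (CD41), had levels of 4.71, 6.19 and 5.65 and ranked 517. Gp6, the collagen receptor, had levels of 3.55, 6.04 and 5.84 and ranked 685. Array 1 was thus the lowest for every marker except Pf4, and its Clec1b and Gp6 levels lay at least 2-fold under both other arrays, as 5.52% of all detected genes did. Without array 1 the percentiles rose from 98.2 to 99.1 for Clec1b and from 96.2 to 97.8 for Gp6, while that of Pf4 remained at 99.9.

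**Figure D1:**
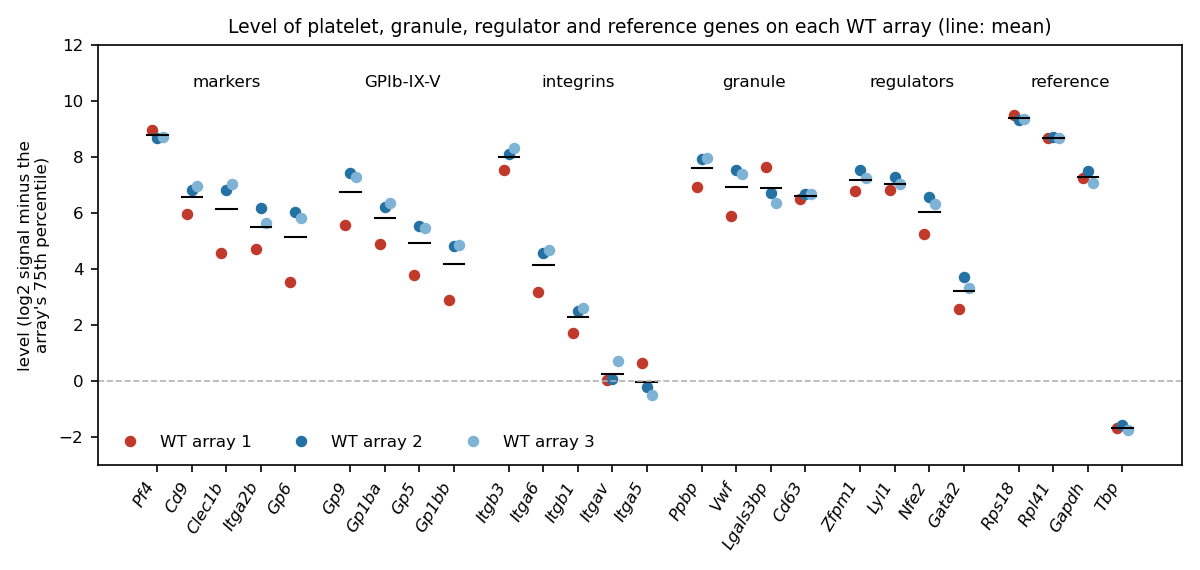
Level (log2 signal minus the array's 75th percentile) of 26 genes on WT array 1 (red), 2 (dark blue) and 3 (light blue), with the mean as a line, in 6 groups of platelet, granule, regulator and reference genes. Array 1 lies below the other arrays for the GPIb-IX-V subunits and for Clec1b and Gp6, and together with them for Pf4 and the reference genes.

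The 250 bases before the start site of the 5 marker genes are shown because the wild-type cells carry the factors named above, which bind short recognition words. They are RefSeq sequences of build GRCm38.p6, printed 5′ to 3′ on the strand of the gene. Capitals mark the words searched on both strands: AGATAA for GATA factors, AGGAAG or CGGAAG for ETS factors, TGTGGT for RUNX factors, TGAGTCA for NF-E2 and AP-1, and TATAAA for the TATA box. Pf4 lies at chr5:90772185-90772434 on the plus strand, Itga2b at chr11:102469884-102470133 on the minus strand and Gp6 at chr7:4397745-4397994 on the minus strand. Clec1b lies at chr6:129397047-129397296 on the plus strand and Cd9 at chr6:125494761-125495010 on the minus strand.
Pf4: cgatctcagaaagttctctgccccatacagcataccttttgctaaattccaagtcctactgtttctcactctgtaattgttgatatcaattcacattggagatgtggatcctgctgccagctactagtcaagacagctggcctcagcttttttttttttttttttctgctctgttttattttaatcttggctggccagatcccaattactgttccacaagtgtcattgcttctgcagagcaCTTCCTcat
Itga2b: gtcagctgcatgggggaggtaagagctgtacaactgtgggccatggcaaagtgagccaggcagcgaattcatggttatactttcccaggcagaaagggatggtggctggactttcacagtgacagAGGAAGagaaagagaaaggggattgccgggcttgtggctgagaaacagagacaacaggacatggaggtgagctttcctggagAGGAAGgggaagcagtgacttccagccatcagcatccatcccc
Gp6: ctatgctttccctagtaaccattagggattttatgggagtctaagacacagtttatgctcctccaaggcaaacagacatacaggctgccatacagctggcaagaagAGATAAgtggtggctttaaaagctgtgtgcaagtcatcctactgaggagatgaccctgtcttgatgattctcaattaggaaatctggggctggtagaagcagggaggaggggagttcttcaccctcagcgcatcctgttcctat
Clec1b: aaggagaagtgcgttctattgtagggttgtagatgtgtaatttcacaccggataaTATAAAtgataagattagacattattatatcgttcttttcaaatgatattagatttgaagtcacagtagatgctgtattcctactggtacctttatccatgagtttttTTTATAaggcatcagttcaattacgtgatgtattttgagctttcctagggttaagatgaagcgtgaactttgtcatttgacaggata
Cd9: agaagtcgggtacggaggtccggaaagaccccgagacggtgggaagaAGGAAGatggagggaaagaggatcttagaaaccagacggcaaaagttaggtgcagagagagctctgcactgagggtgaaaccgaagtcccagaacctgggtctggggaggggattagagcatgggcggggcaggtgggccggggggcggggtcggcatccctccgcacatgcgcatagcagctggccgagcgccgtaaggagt
Pf4 held the ETS word on the opposite strand, beginning 9 bases before the start site, and Itga2b held it at 125 and 43 bases before it. Gp6 held the GATA word at 144 bases, Cd9 the ETS word at 203 bases, and Clec1b the TATA word at 195 and 87 bases. A match is a word in a window and not a binding site, and a window without a word says nothing about the factor.

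The receptors that let platelets stick and respond were among the brighter transcripts. All 4 subunits of the von Willebrand factor receptor, GPIb-IX-V, were detected in the highest 10%. Gp9 had levels of 5.58, 7.44 and 7.29 (rank 187), and Gp1ba of 4.91, 6.22 and 6.38 (rank 406). Gp5 had levels of 3.78, 5.54 and 5.48, and Gp1bb of 2.90, 4.82 and 4.87. Each of the 4 lay at least 2-fold lower on array 1 than on both others, where 5.52% of all detected genes did so. Of the integrin subunits 6 of 7 were detected. Itgb3, the beta subunit of the fibrinogen receptor, was the brightest at 8.0 ± 0.40 (rank 54), above its partner Itga2b at 5.52 ± 0.75, in signal only. Itga6, the laminin receptor subunit, followed at 4.15 ± 0.83, and Itga2, the collagen-binding alpha 2 subunit, was above background on arrays 2 and 3 only. Itga5, the dimmest detected subunit, was highest on array 1 at 0.65, -0.22 and -0.51, while array 1 was the lowest for 5 of the 6.

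Among the 19 receptors that signal through ITAM or ITIM motifs or mediate adhesion, 18 were detected. Treml1, a receptor of the alpha granule membrane, was the brightest at levels of 7.20, 8.82 and 8.56 (rank 36). The Fc receptor gamma chain Fcer1g, which carries the signal of Gp6, stood at 6.90, 6.22 and 6.48, and was thus highest on the array where Gp6 was lowest. The junctional adhesion molecule F11r stood at 5.51, 6.74 and 6.61. Mpig6b, an inhibitory receptor of megakaryocytes, was the dimmest detected member at -2.22, -0.56 and -0.89.

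Receptors for soluble agonists were dimmer. Of 16 such genes 14 were detected, at a median percentile of 68.2 against 86.1 for the adhesion receptors above, and 2 lay in the highest 10%. F2r, a thrombin receptor, was the brightest at 5.70, 7.14 and 7.11 (rank 215), followed by the ADP receptor P2ry1 at 4.21, 4.93 and 4.95. The prostacyclin receptor Ptgir stood at 1.77, 3.99 and 3.78. The thromboxane receptor Tbxa2r at 0.58, 2.80 and 2.60 and the ADP receptor P2ry12 at -3.39, -1.50 and -1.26, picked after their values were seen, showed the same low value on array 1. Array 1 was below both others for 12 of the 14, against 43.1% of all detected genes. Of 14 genes of eicosanoid synthesis 13 were detected, at a median percentile of 81.7. The brightest were Alox5ap, which hands arachidonic acid to 5-lipoxygenase, at 6.31 ± 0.14, Ptgs1 (cyclooxygenase 1) at 5.90 ± 0.71, the 12-lipoxygenase Alox12 at 5.76 ± 1.19 and the 5-lipoxygenase Alox5 at 5.23 ± 1.05. The inducible cyclooxygenase Ptgs2 was near the detection limit at -4.60, -3.94 and -3.74.

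The tetraspanins had a median percentile of 94.2, with 11 of 12 detected. Cd63, a marker of dense granules and lysosomes, stood at 6.50, 6.70 and 6.67 and was even across the arrays. Cd81 stood at 5.72, 6.61 and 6.49, Tspan9 at 3.71, 5.71 and 5.44, and Tspan15 was not above background on any array. Array 1 was below both others for 7 of the 11, against 43.1% of all detected genes. It was above both for 3, Cd53 among them at 2.90, 1.48 and 1.32, against 41.1%.

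Genes of the cytoskeleton that shapes proplatelets were all detected, 58 of 58, and 44 lay in the highest 10%. The myosin light chain Myl6 ranked 10 at 8.81 ± 0.14, and thymosin beta 4 (Tmsb4x) ranked 22 at 8.48 ± 0.08. Zyxin (Zyx) stood at 8.35 ± 0.45 and non-muscle myosin heavy chain Myh9, mutated in a human giant-platelet disorder, at 8.19 ± 0.31. The largest spread of the list, picked after its values were seen, was that of the myosin light chain Myl9, with levels of 4.29, 8.29 and 7.70. Array 1 was below both others for 49 of the 58 genes, against 43.1% of all detected genes and 138 of 208 housekeeping genes. It was at least 2-fold below for 15 of the 58, against 5.52% of all detected genes. Tubb1, the platelet beta tubulin, was not found on the array by name.

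Signalling genes downstream of the receptors were nearly all detected, 58 of 60, at a median percentile of 88.1. The phosphatase Ptpn11 (SHP-2) was the brightest at 6.46, 7.53 and 7.30, followed by the adaptor Dok2 at 5.82, 7.58 and 7.25. Phospholipase Plcg2, which acts below Gp6 and Clec1b, stood at 6.24, 6.90 and 6.54. The regulator of G protein signalling Rgs10 stood at 5.73, 6.84 and 6.84. Array 1 was below both others for 43 of the 58, against the same 43.1%, and at least 2-fold below for 18, against 5.52%.

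Granule genes ranked somewhat lower as a class, at a median percentile of 81.8 against 90.8 for the platelet genes, and 119 of 121 were detected. All 34 alpha granule proteins made by megakaryocytes were detected. After Pf4, the chemokine precursor Ppbp was next at 6.93, 7.93 and 7.98 (rank 74) and von Willebrand factor (Vwf) after it at 5.92, 7.54 and 7.39 (rank 151). Lgals3bp, a galectin-binding glycoprotein, ran the other way at 7.65, 6.72 and 6.37. The chemokine Ccl5 was the most uneven member at 6.24, 1.30 and 2.40, high on array 1 alone. Genes for the building of alpha granules were dimmer, at a median percentile of 76.0: Vps33b stood at 4.03 ± 0.75 and Nbeal2, mutated in gray platelet syndrome, at 0.74 ± 0.62.

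The 30 dense granule genes were all detected. After Cd63 the brightest was Hps4, of the Hermansky-Pudlak complexes, at 5.63, 6.67 and 6.47. The serotonin transporter Slc6a4, picked after its values were seen, was the most uneven at 2.56, 5.90 and 5.76. Of the SNARE and Rab genes of secretion 26 of 28 were detected: Rab11a stood at 5.42 ± 0.43, and Vamp8, the main vesicle SNARE of platelets, at 4.28 ± 0.02. Lysosomal enzymes were bright, with 17 of 17 detected at a median percentile of 91.0. Ctsd stood at 8.14 ± 0.23, Ctsb at 7.62 ± 0.55 and Ctsl at 7.49 ± 0.95, each highest on array 1. Macrophages make the same enzymes, and macrophage genes were also higher on array 1, as given below; their part in these values was not tested.

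The transcription factors of the lineage were detected for 44 of 46 genes, at a median percentile of 76.5. Zfpm1 (FOG-1), the GATA1 cofactor, was the brightest at 6.78, 7.53 and 7.27 (rank 113), followed by Lyl1 at 6.84, 7.28 and 7.05. Nfe2 ranked 350 at 5.24, 6.57 and 6.33, and Mrtfa, the coactivator of serum response factor, 521 at 4.92, 5.89 and 5.67. Gata2, which precedes Gata1 in the lineage, stood at 2.58, 3.71 and 3.33. Gata1 itself, not named by the rule for named genes, stood at 3.36, 4.48 and 4.14, and Runx1, picked likewise, at 0.22, 0.52 and 0.89. Array 1 was the lowest for each of these 7 genes, but over the whole list it was below both others for 24 of 44 and above both for 14, with a median difference of -0.14, where 43.1% of all detected genes were below and 41.1% above. Mecom and Erg, factors of stem cells that also serve megakaryocytes, were not above background on any array; Erg was picked after its values were seen.

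Cytokine receptors and their signalling were detected in full, 29 of 29. The tyrosine phosphatase Ptpn1 stood at 5.76 ± 0.16, the beta common chain Csf2rb at 5.64 ± 0.32 and the erythropoietin receptor Epor at 4.45 ± 0.82. Of 62 genes of the cell cycle 60 were detected, 22 of them in the highest 10%. The replicative helicase subunit Mcm6 stood at 6.40, 6.87 and 6.42, the inhibitor Cdkn2d (p19) at 5.67, 6.38 and 6.31, cyclin D3 (Ccnd3) at 5.18, 6.32 and 5.93, and Pcna at 5.90, 5.71 and 5.67. Cycling and polyploid cells both carry these transcripts, and bulk RNA does not separate them.

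Housekeeping genes gave the scale for these levels: all 208 were detected, at a median percentile of 97.8 and a median SD of 0.17. Of the 20 brightest named genes 13 were housekeeping genes, led by the glycolytic enzyme Aldoa at 9.74, 9.51 and 9.29. The ribosomal protein genes had a median SD of 0.13 and the proteasome genes of 0.14. Rps18 stood at 9.41 ± 0.08, Rpl41 at 8.70 ± 0.02, Psmd3 at 7.07 ± 0.12, and Cox6a1 of the respiratory chain at 8.24 ± 0.01. Pf4, at rank 11, lay among the ribosomal protein genes in signal. The other genes among the 20 brightest were Lars2, Fth1 (ferritin heavy chain), Lrrc58, Myl6, S100a9 and Apoe. Gapdh, at 7.28, 7.52 and 7.08, ranked 104, and the TATA-binding protein gene Tbp, a reference gene of low abundance, 9366 at -1.67, -1.56 and -1.75. The 100 brightest genes held 27.6% of the summed signal of detected genes on array 1, 23.2% on array 2 and 23.5% on array 3, and 11 of them were platelet genes, 5 granule genes and 49 housekeeping genes.

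**Figure D2:**
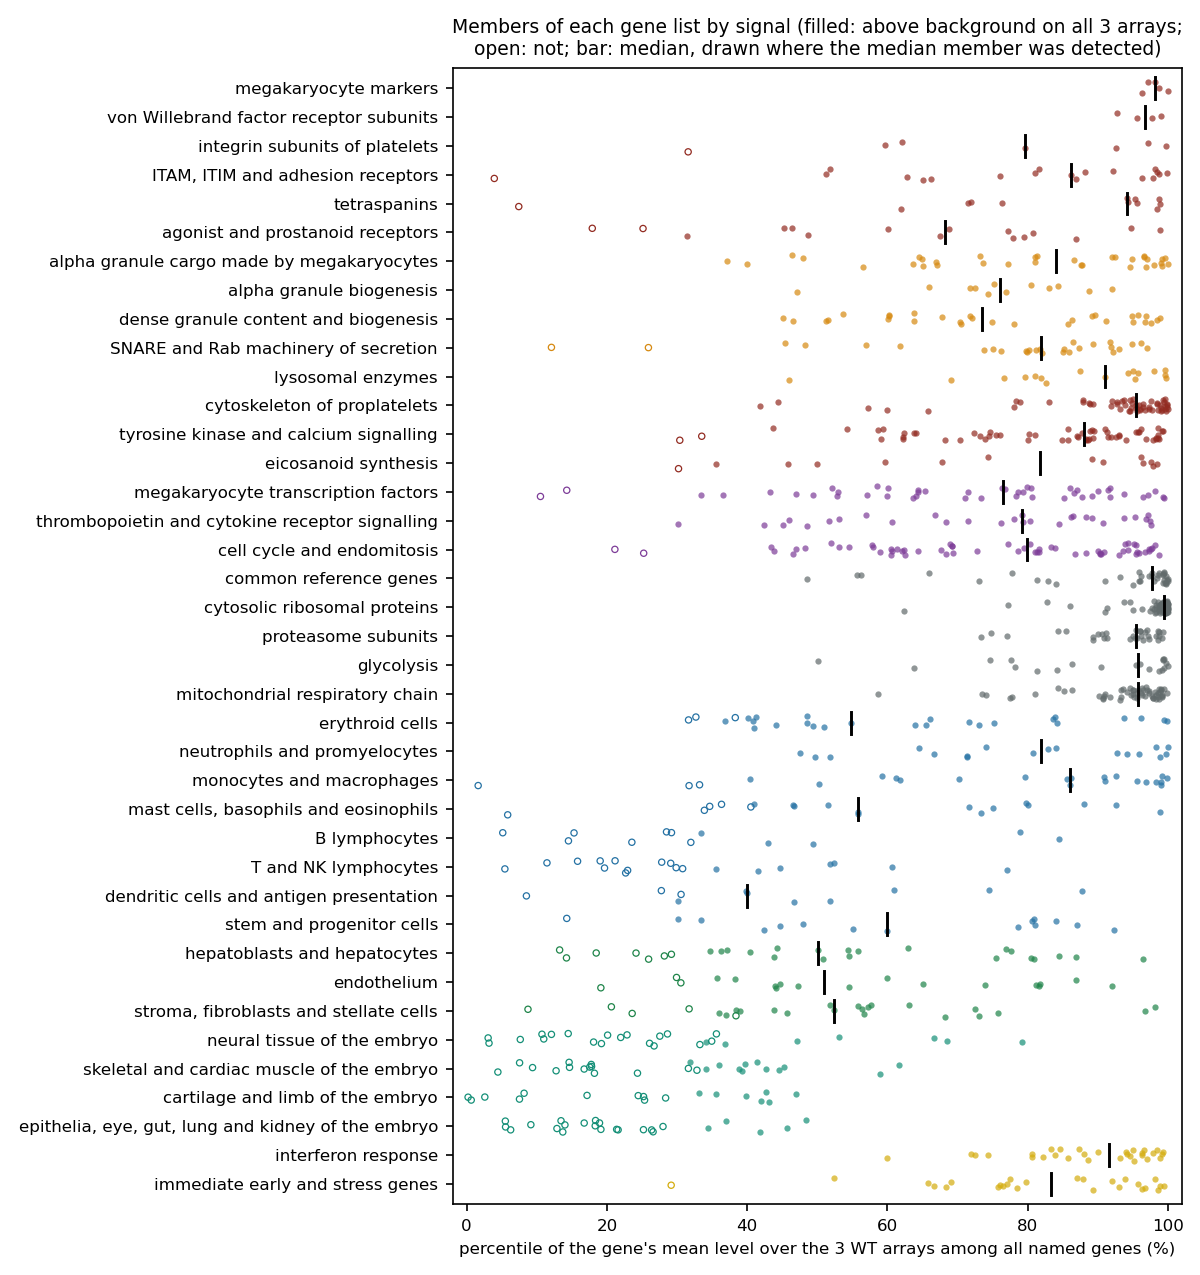
Percentile of each list member's mean level over the 3 WT arrays among all named genes, 1 row per gene list, filled where the gene was above background on all 3 arrays and open where not, with a bar at the list's median where the median member was detected. The list medians of the platelet class run from 68.2 for agonist receptors to 98.2 for the markers, those of the neutrophil and monocyte lists are 81.8 and 86.0, and lymphocyte and embryonic tissue lists hold many open points at the left.

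Genes of the myeloid lineages were bright too. All 18 neutrophil and promyelocyte genes were detected, at a median percentile of 81.8, and 7 of 18 lay in the highest 10%. The calgranulin S100a9 ranked 12, next to Pf4, at 9.33, 8.70 and 8.31, and myeloperoxidase (Mpo), the azurophil granule enzyme, ranked 45 at 8.22, 8.31 and 7.73. Cathepsin G (Ctsg) stood at 6.94, 6.72 and 6.44, and S100a8 at 6.45, 6.68 and 5.54. Array 3 was the lowest for all 4 of these genes. Of 23 monocyte and macrophage genes 20 were detected, at a median percentile of 86.0. Cathepsin S (Ctss) stood at 9.02, 7.55 and 7.96, the Fc receptor Fcgr1 at 8.45, 5.86 and 6.36, the pore protein Mpeg1 at 7.74, 6.13 and 6.71, and Ly6c2 at 8.29, 6.12 and 5.85. All 4 were highest on array 1. The hemoglobin scavenger receptor Cd163 of resident macrophages was not above background on any array, and Vsig4 stood at -1.65, -3.98 and -4.09.

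Eosinophil, basophil and mast cell genes were mixed, with 14 of 19 detected (73.7%, against 66.6% of all named genes). The eosinophil granule protein Prg2 stood at 6.63, 7.02 and 6.38 (rank 211) and the basophil protease Mcpt8 at 2.60, 3.50 and 4.02. The high-affinity IgE receptor subunits Ms4a2, at -3.07, -1.47 and -1.50, and Fcer1a, at -3.85, -2.67 and -2.78, were dim. In bulk RNA, a few cells of these types and a low level in every cell cannot be told apart.

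Erythroid genes ranged widely, from the bright globins Hbb-bt and Hba-a1 to the dim Rhd and Car1. The beta globin Hbb-bt stood at 8.87, 8.66 and 8.0 (rank 21) and the alpha globin Hba-a1 at 8.43, 6.85 and 6.45 (rank 106), both open to cross-hybridisation from their near-identical copies. Epor, which megakaryocytes share with erythroid cells, is given above. The Rh protein Rhd stood at -1.86, -3.61 and -4.37 and carbonic anhydrase Car1 at -3.21, -4.14 and -4.31. The list's median percentile was 54.8, with 24 of 27 detected (88.9%, against 66.6% of all named genes).

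Lymphoid genes were mostly not detected: 5 of 12 B lymphocyte genes and 7 of 19 T and NK genes were, against 66.6% of all named genes. Cd79a, Pax5, Rag1 and Rag2 of B cells and Zap70, Cd8a, Cd247 and Cd2 of T cells were not above background on any array. Cd79b of B cells was detected at 2.73, 1.55 and 2.26, and Cd28 of T cells at -0.51, -1.74 and -0.85. The B-cell adaptor Blnk, at 2.94, 2.55 and 3.11, and the interleukin 7 receptor Il7r, at 3.99, 0.85 and 1.10, were the brightest of their lists. Of 15 stem and progenitor genes 14 were detected, led by Cd34 at 4.30, 3.90 and 4.07.

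Genes of other cells of the liver were dimmer. Of 27 hepatoblast and hepatocyte genes 20 were detected (74.1%, against 66.6% of all named genes), at a median percentile of 50.1. Alpha-fetoprotein (Afp), the secretory product of hepatoblasts, was the brightest at 5.17, 4.87 and 5.66, followed by the keratin Krt18 at 4.76, 1.98 and 2.82 and transferrin (Trf) at 3.35, 2.37 and 2.88. Epcam, Tdo2, Apoc3 and Foxa1 were not above background on any array. Endothelial genes were detected for 15 of 18 (83.3%, against the same 66.6%), led by the VEGF receptor Flt1 at 2.69, 4.59 and 4.86. The endothelial cadherin Cdh5 stood at -2.96, -4.68 and -4.54. Stromal genes were detected for 20 of 25 (80%), also above that share. They were led by vimentin (Vim) at 6.80, 5.53 and 5.98 and smooth muscle actin (Acta2) at 4.99, 5.46 and 5.52. Twist1, Lrat and Igfbp3 of stroma and stellate cells were not above background on any array.

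Genes of embryonic tissues outside the blood and liver were mostly not detected. Of 93 genes of nerve, muscle, cartilage and epithelia, 31 were detected on all arrays and 48 on none, which is 51.6% of them against 24.1% of all named genes. None lay in the highest 10%. Pax6, Neurod1 and Sox1 of the neural tube, Myod1, Myog and Pax3 of muscle, Hoxd13 and Sox5 of limb and cartilage, and Krt5, Trp63 and Cryaa of skin and lens were not above background on any array. The brightest of the 93 were Tubb3, a tubulin of neurons that is also made elsewhere, at -1.01, 3.89 and 3.77, and the adhesion molecule Ncam1 at 0.82, 1.58 and 0.73. The troponin Tnnt2 stood at -0.97, 0.92 and 0.70. All 5 megakaryocyte markers lay in the highest 10% that none of these 93 genes reached.

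Array 1 differed from arrays 2 and 3 by gene group. The difference of array 1 from the mean of arrays 2 and 3 had a median of -0.01 over all detected genes, of -0.76 over the 183 detected platelet genes and of -0.19 over the 208 housekeeping genes. Array 1 was below both others for 139 of the 183 platelet genes, against 43.1% of all detected genes, and at least 2-fold so for 59, against 5.52%. Housekeeping genes also lay mostly below, 138 of 208, among them 47 of 56 of the respiratory chain and 24 of 32 of the proteasome. At least 2-fold below were 2 of the 208. Under scaling to the median probe the 2-fold count was 101 of the 183, beside 1756 of all detected genes in place of 669. In the other direction, all 30 interferon response genes were higher on array 1 than on both others, where 41.1% of detected genes were, and 25 of the 30 were at least 2-fold higher, against 9.19%. Their median was 1.88 higher. The class I antigen gene H2-K1 stood at 8.48, 6.53 and 6.24, the interferon-induced tetherin Bst2 at 8.11, 5.87 and 6.20, Ifi44 at 2.09, -1.56 and -0.54, and the RNA sensor gene Ddx58 at 2.01, 0.79 and 1.43. Arrays 2 and 3 were also not equal: array 2 was the lowest for 26 of the 30 genes and array 3 for 4, H2-K1 among them.

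Other groups differed between the arrays too, most of them on array 1. Monocyte and macrophage genes had a median 1.29 higher, with 14 of 20 above both other arrays and 1 below. Of all detected genes 41.1% were above and 43.1% below. Hepatocyte genes had a median 1.01 higher, with 15 of 20 above and none below. Their median level was -0.64, and Epcam, Apoc3 and Foxa1, not above background on any array, read 1.53, 1.29 and 0.39 higher too. Scaled to the median probe, the hepatocyte difference was 0.47. Detected genes of other dim lists had higher medians too: 1.35 for dendritic cells, 0.82 for B, 0.78 for T and NK, 0.81 for embryonic epithelia and 0.68 for stroma. The medians were 0.19 for endothelium, 0.17 for cartilage, 0.03 for neural and -0.07 for muscle genes. These further lists were not compared under other scalings. Genes of mast cells, basophils and eosinophils had a median difference of -0.80, with 9 of 14 below both other arrays and 3 above. With normexp correction that median was -0.36. For the bright members Prg2, given above, and Ear1, at 4.19, 4.48 and 3.82, array 1 lay between the other arrays. Lysosomal enzymes had a median 0.72 higher. Neutrophil genes had a median 0.82 higher, but 0.068 against array 2 alone, so that difference rests on array 3. Array 3 was below both others for 17 of these 18 genes. It was at least 2-fold below for 8, where 91 of all 12126 detected genes were. Immediate early and stress genes were mixed, with a median 0.44 higher, 16 of 25 above both other arrays and 8 below. Of this list, heme oxygenase Hmox1 stood at 7.93, 5.84 and 5.73, while Hspa8 was lowest on array 1 at 6.36, 6.81 and 6.79. Fewer megakaryocytes among the cells and less of these transcripts per megakaryocyte cannot be told apart in bulk RNA. The part of macrophage or hepatic cells in the platelet values was not tested.

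**Figure D3:**
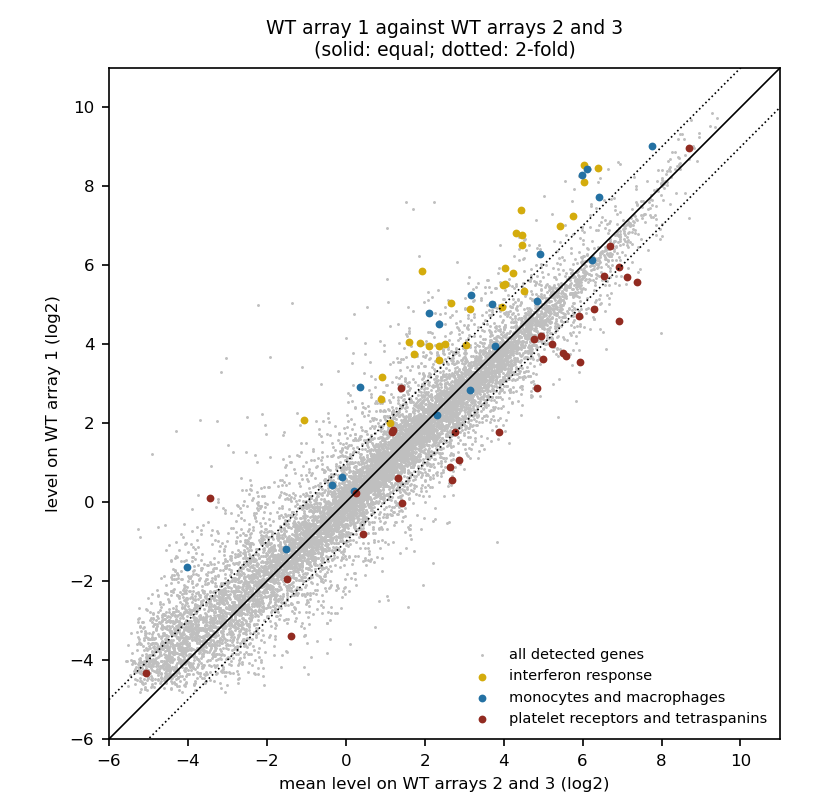
Level on WT array 1 against the mean level on WT arrays 2 and 3 (log2) for all 12126 detected genes (grey), with interferon response genes in yellow, monocyte and macrophage genes in blue, and platelet markers, receptors and tetraspanins in red. All 30 yellow points lie above the solid line of equality, and most red points lie below it.

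**Figure D4:**
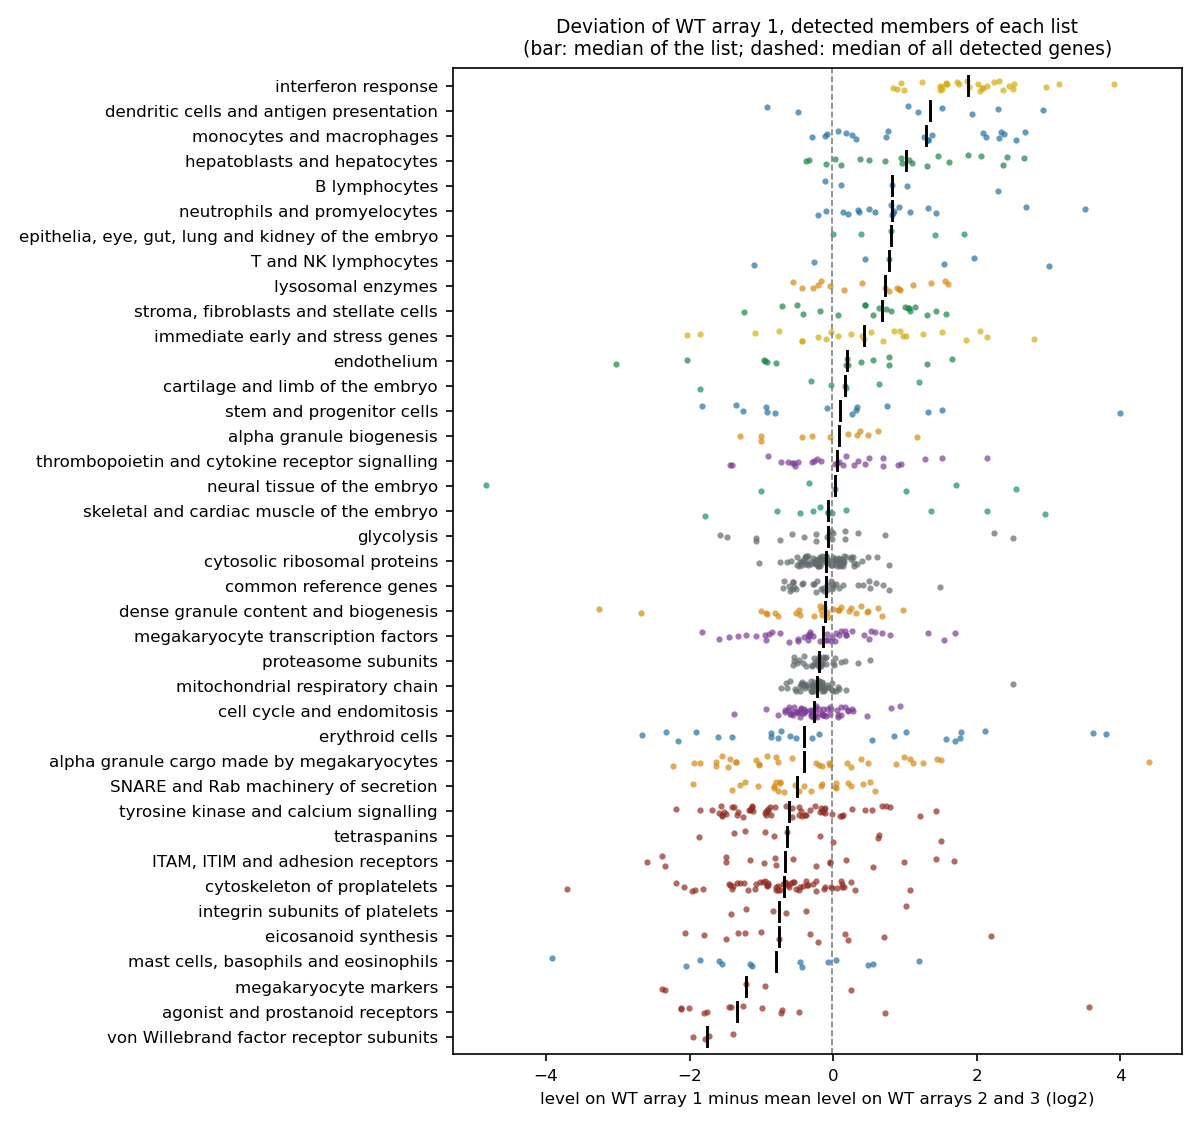
Level on WT array 1 minus the mean level on WT arrays 2 and 3 (log2) for the detected members of each list with at least 4 of them, coloured by class, with the list's median as a bar and the median of all detected genes as a dashed line. The interferon list is at the top with a median of 1.88, and the von Willebrand factor receptor list at the bottom with -1.76.

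The counts for array 1 moved with the scaling. Scaled to the median probe instead of the 75th percentile, the median difference of array 1 over all detected genes was -0.55, and array 1 was above both others for 2116 genes and below for 8570, in place of 4983 and 5229. All 30 interferon genes were still above both others under that scaling, under quantile normalization and under normexp correction, and all 4 GPIb-IX-V subunits still at least 2-fold below. The lysosomal enzymes did not keep their split: 10 were above and 5 below under the 75th percentile, and 7 above and 8 below under the median. Monocyte genes went from 14 above and 1 below to 12 and 6, hepatocyte genes from 15 above and 0 below to 13 and 5, and neutrophil genes from 9 above to 4.

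The most uneven single genes among those with a mean level over 0 were mostly high on array 1. The 15 with the largest SD included the chemokines Ccl7 at 5.0, -2.48 and -1.98, Ccl2 at 7.43, 1.46 and 1.96, and Ccl5, which is given above. Interferon-related H2-Q8 stood at 5.65, 1.21 and 0.87, Ifit1bl1 at 4.95, -0.21 and 1.29, and Slfn4 at 4.15, 0.16 and -0.16. Pou3f1 at 4.76, -0.24 and 0.65 and Slamf9 at 3.42, -1.34 and -0.87 were high there too. Ddx25, Pdpk1, Trim55 and Myo1e shared another pattern, in which all 3 arrays differed: Ddx25 stood at 7.60, 3.65 and -0.57, Trim55 at 6.94, 3.03 and -0.95, Pdpk1 at 7.61, 3.91 and 0.54, and Myo1e at 5.05, 0.12 and -2.83. Further probes of Pdpk1 and Myo1e did not show it: a second Pdpk1 probe read 1.49, 1.66 and 1.92, and a second Myo1e probe -0.37, 0.47 and 0.43. Trim55 had 1 probe only, and the second Ddx25 probe was not above background on any array. Sord was low on array 2 alone at 3.66, -0.84 and 5.12. Tubb3, given above, and Leo1 at -2.66, 1.01 and 2.14 were low on array 1.

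The words of the factors were then counted in the promoters of all genes by signal. A promoter entry, 250 bases before and 50 after the start site, was held for 9754 (80.4%) of the detected genes, and several entries may belong to 1 gene. An ETS word was in 59.5% of the promoters of the brightest 10% of detected genes, in 43.9% of those of the dimmest 10%, in 37.6% of those of genes not above background on any array, and in 46.5% of all promoters of the table. By class the ETS share was 70.6% for housekeeping, 55.1% for platelet, 53.5% for granule and 49.7% for regulator genes. It was 52.2% for other blood, 40% for fetal liver and 29.1% for embryonic genes. The interferon and stress genes, bright as a class at a median percentile of 88.3, also had a share of 29.1% (16 of 55 promoters). The GATA word showed no steady run with signal among detected genes: its share was 7.5% in the brightest 10%, 8.9% in the dimmest 10% and between 4.99% and 9.31% in the steps between them, against 14.7% of undetected genes and 11.2% of all promoters. The TATA word was in 9.9% of the brightest and 21% of undetected, the RUNX word in 14.3% and 15.4%, and the NF-E2 and AP-1 word in 5.3% and 6.0%. The median G+C content was 60.3% in the brightest 10%, 61.7% in the step of 10% that ranks 3 in signal, 60.3% again in step 7, 57.2% in the dimmest 10% and 50.3% in undetected genes. The ETS share was 59.5% in the brightest 10% and 53.1% in step 7. Equal G+C medians do not make the promoters of these steps alike in composition. The part of G+C content in the shares was not tested. The AGGAAG and CGGAAG words are counted together, a promoter can hold several words, and no word contains another.

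**Figure D5:**
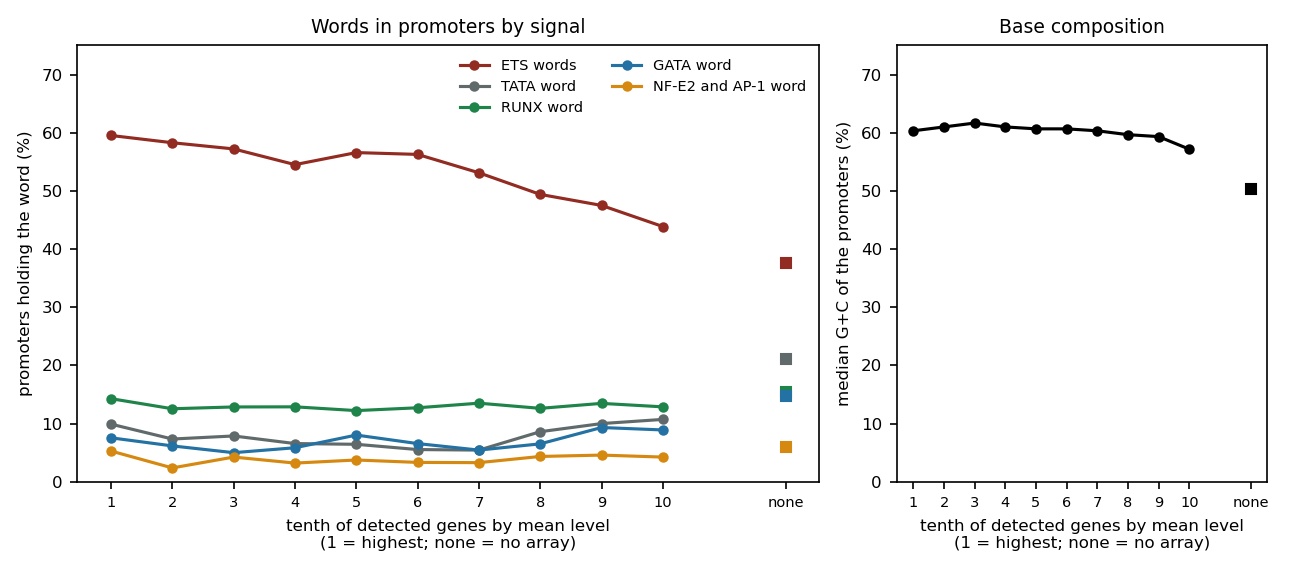
Left, share of promoters (%) that hold each word, in steps of 10% of the detected genes ordered by mean level (1 is the brightest) and for genes not above background on any array (squares). Right, median G+C content (%) of the same promoters. The ETS share falls from 59.5% to 43.9% and then to 37.6%, and the G+C content rises from 60.3% to 61.7% in step 3 before it falls to 57.2% and then to 50.3%.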

How the data were processed

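The labels' protocols describe linear amplification and Cy3 labelling of total RNA for single-colour Agilent arrays. Intensities came from Feature Extraction, version 10.7.3.1 per the file headers and 10.1 per the submitters' processing notes. The deposited processed intensity is background-subtracted, detrended and linear, per the file headers, with no scaling between arrays. The deposited series table held the same intensities within 0.497%, with column medians of 28.4, 30.1 and 35.5; 1-channel values have no direction.

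The 3 WT arrays alone were used. Control spots and 32 to 75 spots per array flagged as non-uniform or population outliers were left out, and spots of a probe were averaged. Symbols came from RefSeq accessions without versions (table of GRCm38.p6, names only), which named 26690 of 41174 probes. A gene was read from its detected probe with the highest mean level. Where a gene had several detected probes (4237 genes), the highest and lowest differed by a median of 2.36 in log2, and by over 2 for 2394 genes. The 39 lists held 1026 genes, of which 995 were on the array by name and 871 were detected; 3 symbols were updated through synonyms. Members and lists were chosen with earlier results of these data known. A rule gave the genes to name: the 5 markers, the 20 of highest level and the 15 of largest SD with a mean level over 0. Of each list it also gave the 4 brightest and 2 dimmest detected members, and all members of lists of 12 or fewer. For each list of another cell type it gave up to 4 undetected members. Not all of these genes are printed, and no further rule was set for those printed. Others are said to be picked later. No test was made, since the design holds 1 group. The number of arrays limits the precision. The series' design calls the 3 samples independent experiments, and the parts of cultures and of technical spread in the SD cannot be told apart. Python 3.11.15 with pandas 2.3.3, R 4.3.3 and limma 3.58.1 were used, and the counting steps were tested on simulated data. Alternatives were median scaling, quantile normalization, normexp with an offset of 50 (on median signals, as the files hold no mean signal), the series table, flagged spots kept, other detection rules, the median probe, each array left out, and the promoter bases nearest the start site. Values of 2 listed genes are not reported here.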

Additional observations from a re-analysis of the deposited data

Results flagged for a closer look

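Probes without a gene symbol carried signal that the gene levels do not use: 31.5% of them, 4566 of 14484, were well above background on all 3 arrays, while at most 2 of the 153 negative control spots of an array were. Of these probes 26 had a mean level above that of the gene at rank 100.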

How the results depend on the processing

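The counts of detected genes, of detected listed genes and of detected embryonic genes as a class remained within 1.5 times of the reported values under every alternative run, with 12207 to 12558 genes detected when an array was left out. With detection on 1 array or more, B lymphocyte genes rose in number from 5 to 8, T and NK genes from 7 to 11 and neural genes from 7 to 14. Scaling to the median probe raised the marker levels to 12.66 for Pf4, 10.5 for Cd9, 10.01 for Clec1b, 9.01 for Gp6 and 9.39 for Itga2b, a shift of the zero point. It also gave array 1 a median difference of -0.55 over all detected genes, -0.73 over housekeeping genes, -1.30 over platelet genes, -1.23 over the cytoskeleton, -1.16 over signalling, -0.95 over alpha granule cargo and 0.18 over lysosomal enzymes, and a median SD of 0.46. With the median of a gene's probes, the median percentile was 88.1 for platelet, 81.1 for granule, 73.5 for regulator, 97.5 for housekeeping, 57.6 for other blood and 48.2 for fetal liver genes, that of Pf4 was 99.97, and lysosomal enzymes differed by 0.35 on array 1. With normexp correction, Pf4 stood at 8.49 and at a percentile of 99.91, and the median percentile was 83.1 for granule, 77.3 for regulator and 56.6 for other blood genes. The cause of these shifts was not tested. The median difference of array 1 over all detected genes, -0.012 as reported, lay on the other side of 0 with normexp correction (0.0060), with the median probe (0.015) and without array 2 (0.043); no other median difference of array 1 compared here changed sign. With an array left out, the median SD lay between 0.14 and 0.30, the granule median percentile between 81.5 and 83.1, and the neutrophil difference of array 1 between 0.068 and 1.34. In the bases nearest the start site, the ETS words were in 42.2% of the promoters of the brightest genes, 27.4% of the dimmest and 22.2% of undetected genes; fewer bases were searched. Gene names from the scanner files were not run as an alternative, because those files hold no such column. No paired analysis was possible because the 3 arrays form 1 group and no result comes from a test. Levels near background limit the dim genes: the median SD was 0.51 in the dimmest 10% of detected genes and 0.25 in the brightest.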

Other observations

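Sex-linked transcripts, listed after the data were seen, divided the arrays in another way than the platelet genes did. Xist, the RNA that coats the inactive X chromosome, had a level of 3.36 on array 3 and was not above background on arrays 1 and 2, at -6.82 and -7.60. All 4 Xist probes read so. The Y-linked gene Eif2s3y stood at 1.64, 1.72 and -7.71, Ddx3y at -0.09, -0.08 and -7.85, and Kdm5d at -1.78, -1.32 and -7.70, and none of the 3 was above background on array 3. A further Y-linked gene, Uty, was above background on 1 array only, at -5.93, -4.89 and -7.68. The split is that of the slides, with arrays 1 and 2 on one and array 3 on the other.

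Fetal growth and imprinted genes, also listed after the data were seen, were detected on every array for all 9 of 9 found by name, where 66.6% of all named genes were. Igf2 stood at 0.82, -0.11 and 1.33, Igf2bp3 at 1.14, 1.08 and 1.26, Lin28b at -0.51, 0.72 and 0.63, Hmga2 at 0.98, -0.22 and 0.38, and Grb10, the brightest of the list, at 2.63, 3.97 and 3.25. The dimmest were Peg3 at -3.31, -4.87 and -3.78, Dlk1 at -0.98, -1.75 and -1.19, and Igf2bp1 at 0.75, -0.47 and -0.63. Meg3 stood at 0.73, -0.23 and 0.69.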
